A study of Mus musculus with 12 samples.

Results

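Thbs1, Thbs2, Thbs3, Thbs4, Postn, Ctgf, Cyr61, Sparc, Tnc and Spp1, which encode 4 thrombospondins, periostin, the 2 CCN proteins Ctgf and Cyr61, Sparc, tenascin C and osteopontin, were followed on mouse heart arrays. These 10 genes, of 37074 gene names on the array, were taken by symbol with every non-control probe, 18 probes in all. They were selected on the log2 intensities of these same arrays, compared over the groups, so their differences between groups are given as a description, with no p-value. The 12 heart samples came from male C57BL6/J mice aged 5 months, with 3 samples in each of 4 groups and 1 array per sample. C mice were non-diabetic and received no pargyline. C+P mice were non-diabetic and received pargyline, an inhibitor of the monoamine oxidases of the outer mitochondrial membrane, at 50 mg/kg/day for 12 weeks. D mice received streptozotocin, a toxin of pancreatic beta cells, at 50 mg/kg/day for 5 days from the age of 6 to 7 weeks and counted as diabetic at a blood glucose of 17 mM or more. D+P mice received both agents. All mice labelled diabetic received the toxin, so hyperglycemia and other actions of streptozotocin cannot be told apart. The study asked whether monoamine oxidases, beyond acting directly on mitochondria, also regulate cell function and survival post-transcriptionally in disease.

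C and D arrays shared one slide and C+P and D+P arrays the other, and non-diabetic hearts lay in one row of the slide and diabetic hearts in the other. D was therefore compared with C, and D+P with C+P, within a slide, while pargyline and slide cannot be told apart, nor can diabetes and slide row. Between 23556 and 29231 non-control spots per array were well above background. Repeated spots of a probe varied by a median of more than 10% (coefficient of variation) on 5 arrays, namely replicate 1 of each group and D+P replicate 3, and reached 23.2% on D replicate 1. The tissue label was checked on 7 cardiomyocyte markers, and 7 of 7 were well above background on all 12 arrays. In whole heart, fewer cells of a type and less RNA per cell cannot be told apart.

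Matricellular proteins are secreted into the extracellular matrix but serve as signals rather than as load-bearing fibers. They bind integrins, growth factors and collagens, and several that are scarce in the resting adult heart are known for reappearing after injury and in fibrosis. Thrombospondins bind the receptors CD47 and CD36 and thrombospondin-1 can release active TGF-beta from its latent complex, while Ctgf and Cyr61 are textbook targets of the YAP and TEAD transcription factors.

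The probes and the promoters that the results turn on are shown first. Each probe has 60 bases, of which the first 30 are printed 5′ to 3′ as the array files give them, with mm9 coordinates, to show that the pairs of probes for Thbs1 and for Thbs3 are different stretches of 1 transcript record (NM_011580 and NM_013691).
Thbs1 probe A_55_P2746459, chr2:117952585-117952644, brightest tested Thbs1 probe: gcctgtagagttagtatttctggtttttat
Thbs1 probe A_65_P13588, chr2:117950962-117951021, second Thbs1 probe: cgaatgagaatgcatcttccaagaccatga
Thbs3 probe A_55_P2063465, chr3:89030667-89030726, brightest Thbs3 probe: ggggttgggagactttcaaggggtattatt
Thbs3 probe A_51_P267053, chr3:89030522-89030581, second Thbs3 probe: acccagatcctgatcggagacctttggcca
Ctgf probe A_51_P157042, chr10:24318281-24318340, the single Ctgf probe: gtcaaatccctgttggtgaacaaatggcct
Cyr61 probe A_51_P252859, chr3:145310187-145310246, the single Cyr61 probe: aagattagttgggccaagtgaaagccctgc

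Promoters were taken from RefSeq on GRCm38.p6 and searched over the 250 bases before the start. The table held 8 of the 10 genes. Thbs1 and Ctgf (now Ccn2) were not among them. CATTCC, the letters that TEAD factors bind, was found in Cyr61 (listed as Ccn1) and Thbs4, on either strand in 12.6% of all 32851 promoters. The capitals mark CATTCC and TATAAA. The 2 CATTCC matches of Thbs4 overlap by a base.
Cyr61 promoter, chr3:145649986-145650235, minus strand: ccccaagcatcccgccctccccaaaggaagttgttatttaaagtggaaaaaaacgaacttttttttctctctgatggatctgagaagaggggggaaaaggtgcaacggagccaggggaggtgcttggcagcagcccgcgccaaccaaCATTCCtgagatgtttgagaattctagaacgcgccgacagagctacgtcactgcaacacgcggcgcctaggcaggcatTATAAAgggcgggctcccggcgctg
Thbs4 promoter, chr13:92794819-92795068, minus strand: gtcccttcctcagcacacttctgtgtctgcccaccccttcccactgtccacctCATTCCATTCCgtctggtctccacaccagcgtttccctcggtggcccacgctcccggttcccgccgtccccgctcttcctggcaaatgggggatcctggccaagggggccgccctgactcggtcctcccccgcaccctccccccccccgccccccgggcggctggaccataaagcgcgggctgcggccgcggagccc
TATAAA, found in 12.4% of all promoters, was in the promoters of Cyr61 and Thbs2, both of Tnc, and one each of the 2 Spp1 and the 2 Postn promoters. TGANTCA, the AP-1 letters (6.75% of all promoters), TGACGTCA, the cyclic AMP response element (1.55%), GTCTAGAC, a SMAD palindrome (0.167%), and the CArG box of serum response factor, which can share letters with TATAAA (1.47%), were searched on both strands and found in none of the members' windows. A match of letters is a description and not a site that was shown to be bound.

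Values are log2 quantile-normalized fluorescence intensities, on which probes of different genes cannot be ranked against each other. A probe was tested when no group had fewer than 50% of its arrays positive and significant against background, as 30859 of 56605 probes were, 14 of the 18 among them. Tested probes covered 8 genes, 7 of which had a probe well above background on all 12 arrays, Thbs1 being the exception. Tnc, whose protein tenascin C marks remodeling matrix, and Spp1, whose protein osteopontin binds integrins and CD44, were well above background on 0 of 12 arrays with any probe. No level and no difference is given for these 2 genes. Over the brightest tested probe of each gene, 1 of 8 genes passed the limma threshold (adjusted p under 0.05 over all tested probes) in the comparison of D+P with C+P, Thbs1, where 0.0454% of all tested probes did so. In each of the other 5 comparisons 0 of 8 passed. The share of all tested probes that passed was 0.00648% for D against C, 0.107% for diabetes averaged over pargyline, 0.0324% for C+P against C, 0% for D+P against D (4099 probes had an unadjusted p under 0.05) and 0.00648% for the interaction of diabetes and pargyline. The Thbs1 call was lost when any one of 9 arrays was left out (each C array, each C+P array, D replicate 1, D replicate 2 or D+P replicate 3), with differences of -3.45 to -3.04. Nothing is read from the members' counts, since the choice of genes used these values.

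Thbs1, the thrombospondin that releases active TGF-beta and a major protein of platelet granules, was highest in C+P on both of its tested probes. Its brightest probe, which was well above background on 3 of 3 arrays of C and of C+P, on 2 of 3 D arrays and on 1 of 3 D+P arrays, read 6.03, 5.92 and 5.55 (C), 8.24, 7.72 and 7.88 (C+P), 5.81, 5.84 and 6.26 (D) and 5.37, 3.63 and 5.29 (D+P). The C+P values lay above those of every other group and C and D overlapped, while the D+P values were lowest on this probe only, at the edge of detection. The D+P mean was below the C+P mean by a log2 difference of -3.19 (SE 0.40, n = 3 per group) and below the D mean by -1.21 (SE 0.40). The C+P mean was above the C mean by 2.11 (SE 0.40), or 4.32-fold, and D differed from C by 0.14 (SE 0.40), or -0.01 to 0.23 when one array was left out. D+P replicate 2 was the lowest array, and without it the D+P against C+P difference was -2.62 and that of D+P against D -0.64.

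The second Thbs1 probe read 4.81, 5.32 and 4.35 (C), 8.01, 6.52 and 7.27 (C+P), 3.32, 4.42 and 5.50 (D) and 5.67, 4.52 and 3.63 (D+P). The C+P arrays again lay above all others, while C, D and D+P overlapped. On the D arrays and the D+P arrays it was well above background on 0 of 3, where it gives only a bound, and C+P was at least 4.18-fold higher than D+P. That bound sets the C+P mean against the mean, over the D+P arrays, of the higher of the probe's own value and the lowest signal well above background. The lower level of D+P than D on the brightest probe (-1.21) could not be read on this probe, which was not well above background in either group, and the 2 probes correlated over the 12 arrays at r = 0.782. Under background correction by normexp the D+P against C+P difference of the brightest probe was -1.57, that of C+P against C 1.22 and that of D+P against D -0.37.

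Cyr61, the CCN protein that binds integrins and is induced within minutes by serum, was also highest in C+P. It read 9.41, 8.91 and 9.02 (C), 11.48, 10.34 and 10.09 (C+P), 9.86, 9.39 and 9.35 (D) and 9.41, 9.42 and 10.08 (D+P). The 3 C+P arrays lay above all others, and C+P replicate 1 stood above its group. The C+P mean exceeded the C mean by 1.52 (SE 0.35), or 2.87-fold, and by 1.10 without C+P replicate 1. D+P lay below C+P by -0.997 (SE 0.35), and by -0.58 without C+P replicate 1. D differed from C by 0.42 (SE 0.35), or 0.26 without D replicate 1, and D+P differed from D by 0.11 (SE 0.35), or -0.12 to 0.27 when one array was left out.

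**Figure D1:**
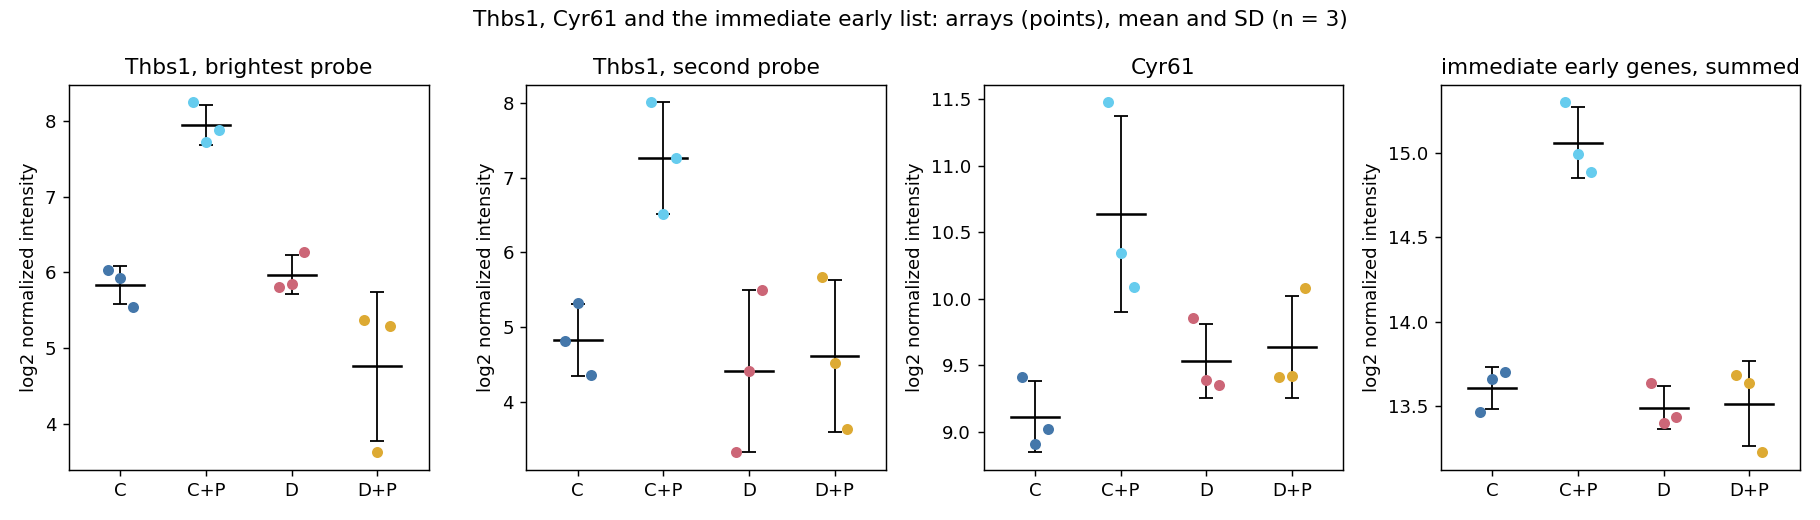
Log2 normalized intensity of both Thbs1 probes, of Cyr61 and of the summed signal of 14 immediate early genes in C, C+P, D and D+P. Points are arrays, horizontal lines are means and bars are SD (n = 3), and in each panel the 3 C+P arrays lie above all others.

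Immediate early genes, transcription factors and regulators that are switched on within minutes of a stimulus, moved with Thbs1 and Cyr61. The log2 of their summed signal over 14 tested genes of 15 was 13.47 to 13.70 (C), 14.89 to 15.30 (C+P), 13.40 to 13.64 (D) and 13.23 to 13.68 (D+P). In limma, 6 of the 14 (Fos, Fosb, Egr1, Egr2, Nr4a1 and Ier2) passed as higher in C+P against C. The same 6 passed as lower in D+P against C+P. The share of all tested probes that passed was 0.0324% and 0.0454%. Both comparisons use the C+P arrays. The list was written with earlier results of these data known, so its counts are a description. Leaving out one array at a time, 3 to 6 of the 14 passed in C+P against C and 3 to 7 in D+P against C+P, with Egr1, Nr4a1 and Ier2 among them each time, and without the 5 arrays of noisy repeated spots 0 passed in either. With only the groups of the contrast 2 passed in each (Egr1 in both, with Ier2 in C+P against C and Fos in D+P against C+P), and with the methods' t-test 0 after Benjamini-Hochberg adjustment. For D against C 0 of the 14 passed. Ier2, for example, read 7.67 (C), 9.66 (C+P), 7.29 (D) and 7.64 (D+P) as group means. The list is no part of the matricellular genes, and its part in their values was not tested.

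Platelet transcripts were compared because platelets carry thrombospondin-1. Of 6 platelet genes 4 were tested, and 1 was well above background on all 12 arrays. The platelet integrin chain Itga2b was so on 0 of 12 arrays, and Gp9, which was tested, on no D+P array. The log2 summed signal of the 4 tested genes was 11.38 to 11.58 (C), 11.55 to 11.83 (C+P), 11.20, 11.29 and 12.44 (D) and 10.97 to 11.26 (D+P). The 12.44 was on D replicate 1, the array with the noisiest repeated spots. Ppbp, a platelet chemokine precursor, was the 1 gene of the 4 that passed, with -3.18 for D+P minus C+P (limma, adjusted p = 0.0336) and -2.11 for the averaged effect of diabetes (adjusted p = 0.0418). Of all tested probes 0.0454% and 0.107% passed there. The platelet list was also written with earlier results known, so these calls are a description. Each of these calls was lost when any one of 11 of the 12 arrays was left out, D+P replicate 1 being the exception. Their part in the Thbs1 values was not tested. Macrophage genes, of which 8 of 8 were well above background on all arrays, had log2 summed signals of 14.09 to 14.32 (C), 14.14 to 14.81 (C+P), 13.71 to 14.09 (D) and 13.73 to 13.90 (D+P). Each diabetic array lay below each non-diabetic one, though D replicate 3 (14.0901) and C replicate 3 (14.0937) nearly met. All 8 were lower in D than in C and in D+P than in C+P, with a median averaged difference of -0.45, and 6 of 8 had an unadjusted p under 0.05 for the averaged effect, where 11.4% of all tested probes did. In limma 0 of 8 passed in any of the 6 comparisons, and their part in the matricellular values was not tested.

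Ctgf, the CCN protein that promotes collagen synthesis by fibroblasts, was higher in D than in C. Its probe read 10.30, 10.36 and 10.30 (C), 11.67, 10.87 and 10.70 (C+P), 12.76, 12.19 and 11.45 (D) and 11.08, 12.07 and 11.77 (D+P). The C arrays were closest together and lay below every array of the other groups, whereas C+P and D+P overlapped, as did D and D+P. D exceeded C by 1.82 (SE 0.37), or 3.52-fold, and by 1.502 without D replicate 1. C+P exceeded C by 0.76 (SE 0.37), or 0.47 without C+P replicate 1. D+P exceeded C+P by 0.56 (SE 0.37) and differed from D by -0.49 (SE 0.37), with ranges of 0.34 to 0.85 and -0.84 to -0.18 when one array was left out. In order of the means, C (10.32 ± 0.03, SD, n = 3) was lowest, followed by C+P (11.08 ± 0.52), D+P (11.64 ± 0.51) and D (12.13 ± 0.66), and neighbours other than C and C+P overlapped. Without the 5 arrays of noisy repeated spots the D+P against D difference was 0.25 in place of -0.49, and that of D+P against C+P was 1.28.

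Thbs4, a thrombospondin of tendon and injured heart that acts in the stress response of the endoplasmic reticulum, read 7.22, 7.39 and 7.55 (C), 8.08, 7.37 and 7.39 (C+P), 7.93, 8.23 and 8.02 (D) and 7.70, 7.38 and 7.98 (D+P). The D arrays lay above the C arrays, but D overlapped D+P and 1 of the C+P arrays reached the D range. The D against C difference was 0.67 (SE 0.23) and the D+P against C+P difference 0.07 (SE 0.23), which was -0.08 to 0.31 when one array was left out. Thbs4 and Ctgf correlated at r = 0.682 over the 12 arrays, the highest r among all pairs of the 8 tested genes, followed by Thbs1 and Cyr61 at r = 0.667. Both r values are descriptions over arrays that share groups and slides.

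Thbs2, the thrombospondin that controls collagen fibril assembly, read 6.29, 6.17 and 6.33 (C), 5.81, 6.38 and 6.44 (C+P), 6.65, 6.23 and 7.12 (D) and 6.71, 6.87 and 6.81 (D+P). The D+P arrays lay above the C+P arrays, by 0.58 (SE 0.23), while D and C overlapped, with a difference of 0.40 (SE 0.23) that was 0.18 without D replicate 3 and 0.62 without D replicate 2. Without C+P replicate 1 the D+P against C+P difference was 0.38. Averaged over pargyline, the diabetic hearts exceeded the others by 0.49 (SE 0.17). C+P and C differed by -0.05 (SE 0.23), or -0.17 to 0.15 when one array was left out.

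**Figure D2:**
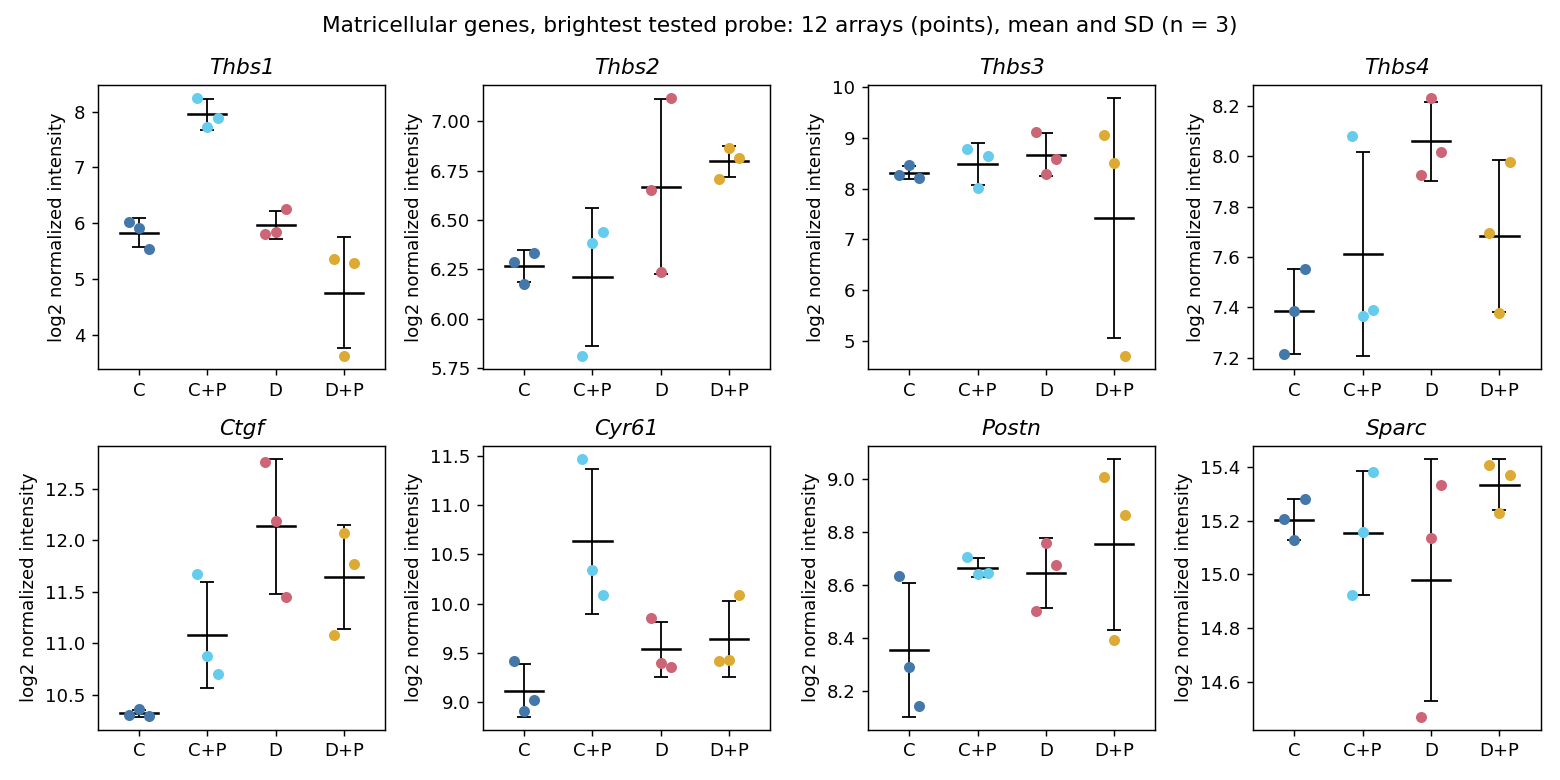
Log2 normalized intensity of the brightest tested probe of 8 matricellular genes on the 12 arrays, by group. Points are arrays, horizontal lines are means and bars are SD (n = 3). Axes differ between panels and do not start at 0, and the D+P array of Thbs3 at 4.70 stands apart.

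Thbs3, the thrombospondin best known from cartilage and bone, gave different readings from its 2 probes. The brightest probe read 8.28, 8.46 and 8.21 (C), 8.79, 8.01 and 8.64 (C+P), 9.12, 8.29 and 8.58 (D) and 9.05, 8.51 and 4.70 (D+P). D+P replicate 3 stood far below all others, and the second probe read 7.48 on that same array within a range of 7.27 to 8.14 over all 12 arrays. Without D+P replicate 3 the D+P against C+P difference of the brightest probe was 0.30 in place of -1.06 (SE 0.87). The second probe gave -0.21 (SE 0.17) for D+P against C+P, which was -0.07 without C+P replicate 1 and -0.32 without C+P replicate 2, and 0.50 (SE 0.17) for C+P against C, where its arrays did not overlap. The 2 probes correlated at r = 0.266.

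D+P replicate 3 held 73 tested probes that were more than 3 log2 units below the median of the other arrays and more than 2 below every one of them. They lay between rows 170 and 214 and columns 72 and 89 of the array, a rectangle that holds 385 tested probes, and the brightest Thbs3 spot was in row 184 and column 76. The second Thbs1 probe, in row 207 and column 74, lies in the same rectangle, and the brightest Thbs1 probe, in row 26, does not. On the other arrays the number of such probes ranged from 0 to 33. Whether a local fault of that array lowered these spots was not tested.

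**Figure D3:**
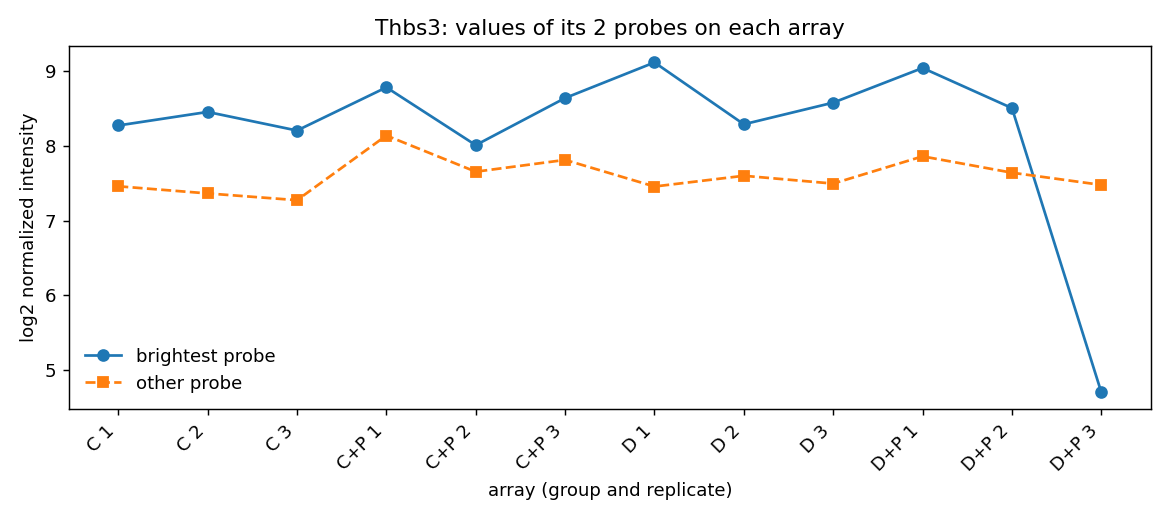
Log2 normalized intensity of the 2 Thbs3 probes on each of the 12 arrays, with the lines only joining points of the same probe. The brightest probe drops to 4.70 on D+P replicate 3, where the other probe reads 7.48.

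Postn, whose protein periostin is made by activated fibroblasts and binds collagen and integrins, was measured by 3 tested probes that correlated at r = 0.885 to 0.928. The brightest read 8.64, 8.29 and 8.14 (C), 8.71, 8.64 and 8.65 (C+P), 8.50, 8.76 and 8.68 (D) and 9.01, 8.39 and 8.86 (D+P). The C+P arrays lay just above the C arrays and all other groups overlapped. The C+P against C difference was 0.31 (SE 0.19) on this probe (0.204 without C replicate 3), 0.44 (SE 0.24) and 0.72 (SE 0.24) on the others. The D against C difference ranged from 0.29 to 0.49 over the 3 probes, and from 0.18 without C replicate 3 to 0.75 without C replicate 1, and the fourth, designed to another transcript record, was well above background on 0 of 12 arrays.

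Sparc, a collagen-binding protein abundant in resting heart fibroblasts, had overlapping groups on its brightest probe. That probe read 15.21, 15.13 and 15.28 (C), 14.92, 15.16 and 15.38 (C+P), 14.47, 15.14 and 15.33 (D) and 15.41, 15.23 and 15.37 (D+P). D replicate 1, the array with the noisiest repeated spots, was the lowest. The D against C difference was -0.23 (SE 0.22) and that of D+P against D was 0.36 (SE 0.22), or 0.03 and 0.10 without D replicate 1. The second probe gave 0.07 (SE 0.20) and 0.24 (SE 0.20) in the same comparisons (-0.02 to 0.22 and 0.10 to 0.31 when one array was left out), its D+P arrays lying above its D arrays, and the third, well above background on 2 of 3 arrays at most in any group, differed by 0.13 (SE 0.65) and -0.16 (SE 0.65) (-0.32 to 0.37 and -0.37 to 0.06 when one array was left out).

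Over the 8 genes on their brightest probe, 2 of 8 had D arrays all above the C arrays (Thbs4 and Ctgf), where 22.2% of all tested probes had no overlap in either direction. For D+P against C+P 3 of 8 did not overlap (Thbs2 higher, Thbs1 and Cyr61 lower; all probes 13.9%), for C+P against C 4 of 8 (Thbs1, Postn, Ctgf and Cyr61, higher; all probes 15.3%) and for D+P against D 1 of 8 (Thbs1, lower at the edge of detection; all probes 17%). The Cyr61 arrays in D+P against C+P were parted only by 10.0900 (C+P replicate 3) against 10.0842 (D+P replicate 3). For Postn in C+P against C it was 8.6422 (C+P replicate 2) against 8.6355 (C replicate 1), and another of its tested probes overlapped there. The median difference of the 8 genes was 0.38 for D against C and 0.27 for C+P against C, beside -0.01 and -0.007 over all tested probes. For D+P against C+P it was 0.08 beside 0.007, and for D+P against D -0.13 beside -0.001. Single arrays moved both of the last medians, the first to 0.01 without C+P replicate 2 and 0.23 without D+P replicate 2, the second to -0.03 without D+P replicate 3. Each group enters 2 of these comparisons, so they share samples.

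**Figure D4:**
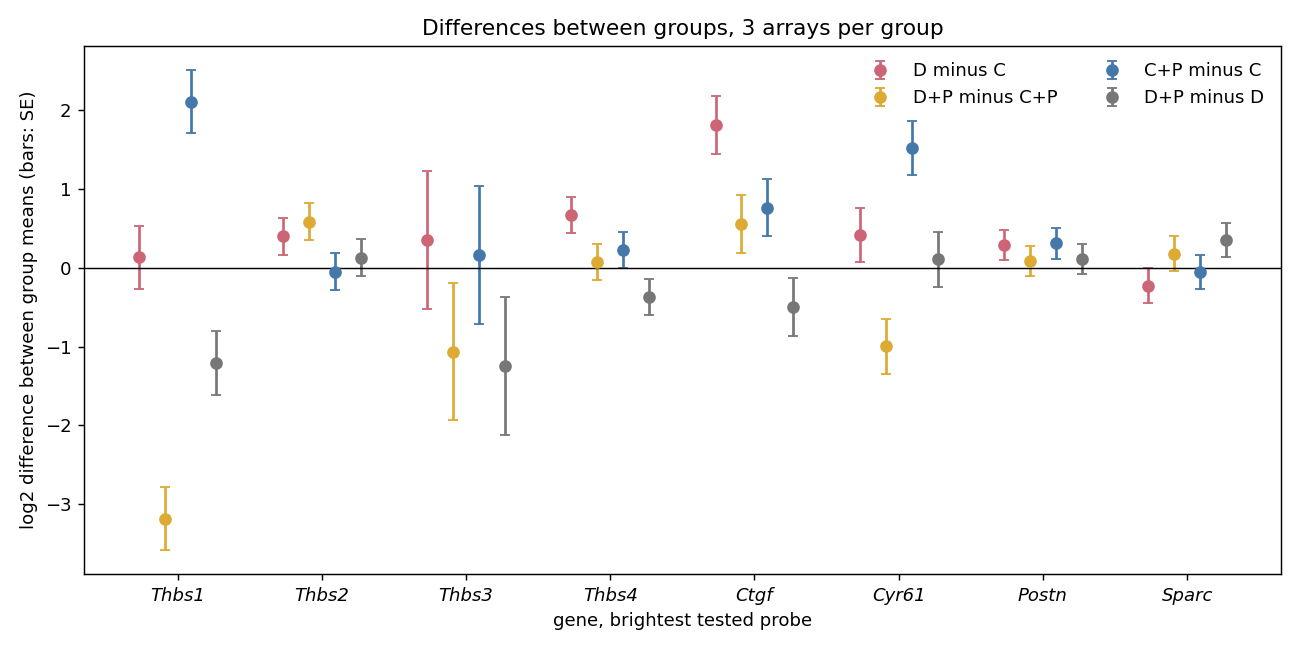
Log2 difference between group means for the brightest tested probe of each of 8 genes in 4 comparisons, with bars giving the standard error of the limma fit. The C+P minus C difference of Thbs1 is 2.11 and the D minus C difference of Ctgf is 1.82, while the -3.19 of Thbs1 for D+P minus C+P rests on a D+P level well above background on 1 of 3 arrays and was -1.57 under normexp.

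Other genes of the same pathways were taken from 4 lists, and 0 genes of any list passed in any of the 6 comparisons by limma. Of 24 other matricellular genes 20 were tested, the exceptions being Tnr, Tnn, Ibsp and Cthrc1. In D against C 12 of the 20 were higher and 8 lower, with a median of 0.08, and 0 had an unadjusted p under 0.05, where 10.8% of all tested probes did. The 3 with the largest averaged effect of diabetes were the proteoglycan Spock2 (well above background on at most 1 array per group, so no difference is given), the fibulin family member Efemp1 (-0.63, SE 0.32) and the CCN protein Wisp1 (0.37, SE 0.36). Without D+P replicate 1 these were -0.38 and 0.64, and Wisp1 was 0.14 without C+P replicate 1. In C+P against C 5 of the 20 had an unadjusted p under 0.05, where 4.43% of all tested probes did.

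All 24 receptors and co-receptors were tested, including the integrin chains, CD47, CD36 and the scavenger receptor LRP1. Comparing D+P with C+P, 15 were higher and 9 lower, with a median of 0.03, and 3 had an unadjusted p under 0.05 (7.46% of all tested probes), whereas 7 were higher and 17 lower for D compared with C (median -0.10). Averaged over pargyline, Itga5, the fibronectin receptor chain, differed by -0.78 (SE 0.23) and Itgb3, the beta chain of the vitronectin receptor that also binds thrombospondin-1, by -0.65 (SE 0.14). Itga4, the third by this effect, was not well above background on any D+P array and on 2 of 3 C+P arrays, and C+P was at least 1.32-fold higher than D+P. Itgb3 read 6.67 (C), 7.49 (C+P), 6.55 (D) and 6.30 (D+P) as group means, and its adjusted p was 0.109 in D+P against C+P (limma).

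For the 25 TGF-beta ligands, carriers and signalling genes, all tested, 11 were higher and 14 lower for D compared with C (median -0.04), and 11 and 14 for D+P compared with C+P (median -0.03). The 3 with the largest averaged effect were Ltbp2, a matrix carrier of latent TGF-beta (-0.53, SE 0.18), the endothelial receptor Acvrl1 (-0.29, SE 0.11) and the corepressor Tgif1 (-0.26, SE 0.11). In C+P against C 17 were higher and 8 lower, and 6 had an unadjusted p under 0.05 (4.43% of all tested probes).

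For the 26 regulators and targets of YAP and TEAD and of serum response factor, all tested, 11 were higher and 15 lower for D compared with C (median -0.05), and 16 and 10 for D+P compared with C+P (median 0.06). The 3 with the largest averaged effect were Vgll3 (-0.66, SE 0.27), a TEAD cofactor, Sav1 (0.40, SE 0.19), a scaffold of the Hippo kinases, and Amotl2 (0.34, SE 0.16), which binds YAP. Unadjusted p values under 0.05 numbered 1 for D compared with C, 2 for D+P compared with C+P and 0 for C+P compared with C, beside 10.8%, 7.46% and 4.43% of all tested probes.

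**Figure D5:**
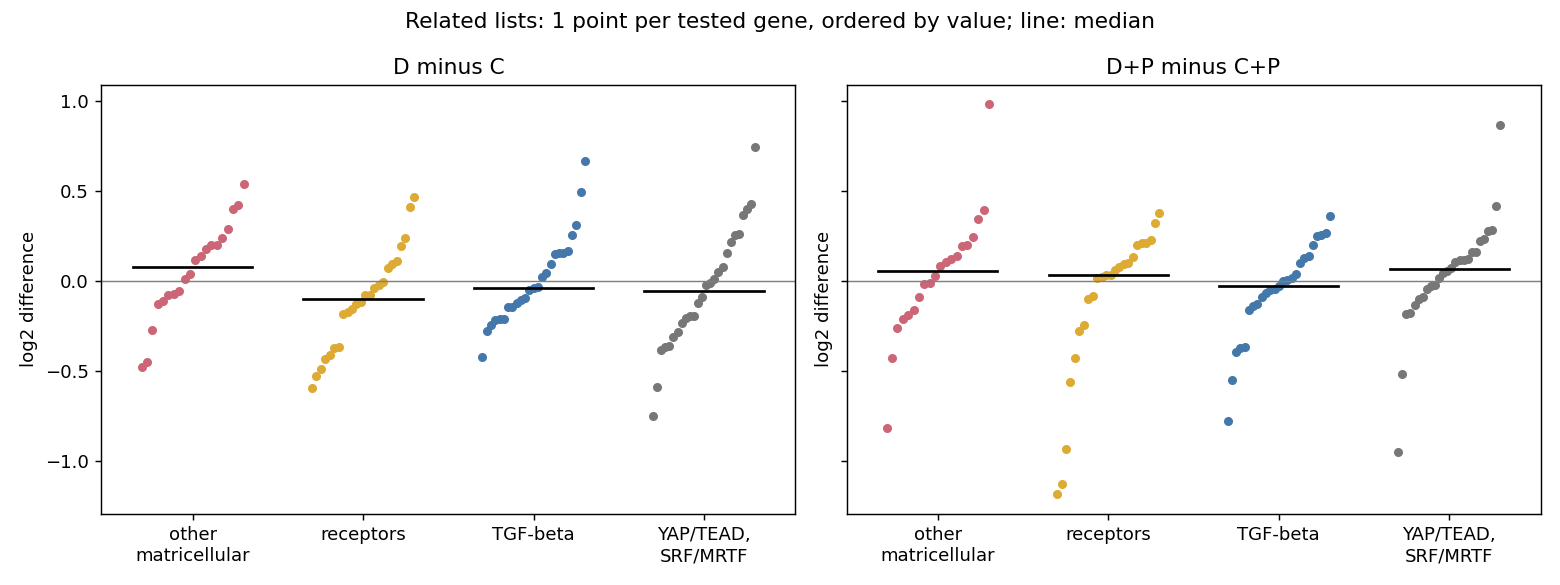
Log2 differences of D minus C (left) and D+P minus C+P (right) for every tested gene of 4 related lists, ordered by value within each list, with the median as a line. The list medians lie between -0.10 and 0.08, or -0.18 and 0.15 when one array was left out, and no gene passed the limma threshold.

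Fibroblast markers, of which 9 of 9 were tested, had log2 summed signals of 16.50 to 16.58 (C), 16.39 to 16.50 (C+P), 16.62 to 16.73 (D) and 16.65 to 16.86 (D+P). These sums, which the brightest genes dominate, were higher on each diabetic array than on each of the others. By gene, 6 were higher and 3 lower for D compared with C, and 5 and 4 for D+P compared with C+P, and 0 of the 9 passed in any comparison. Tendon and cartilage markers, which go with Thbs4 and Thbs3, had 4 of 7 tested and 3 (Chad, Tnmd and Acan) well above background on 0 of 12 arrays. Their log2 summed signal was 8.95 to 8.99 (C), 9.21, 9.54 and 16.91 (C+P), 9.23 to 9.60 (D) and 9.27 to 9.49 (D+P), so the C arrays lay below all others. The 16.91, on C+P replicate 2, came from Fmod, a collagen-binding proteoglycan, which was well above background on that array alone. The part of these markers in the matricellular values was not tested. Epicardium markers, with 3 of 5 tested, had log2 summed signals of 8.71 to 8.84 (C), 8.89 to 9.30 (C+P), 9.01 to 9.68 (D) and 8.80 to 9.52 (D+P). The C arrays lay below the C+P and the D arrays, and the part of this list was not tested either. Of the tendon and cartilage, endothelial, smooth muscle and pericyte, cardiomyocyte, atrial, epicardium and red cell markers 0 passed in any of the 6 comparisons.

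By Pearson correlation over the 12 arrays, the tested genes most like each matricellular gene were these. Thbs1 was most like Hsph1 (r = 0.928), a heat-shock protein, Skil (0.907), a corepressor of SMAD proteins, and Sik1 (0.905), a salt-inducible kinase. Cyr61 was most like Frmd5 (0.964), and Unc119b (0.917) was also among its closest genes. Ctgf was most like Dpysl3 (0.954), D630045M09Rik (0.951) and Pip5k1b (0.941). Thbs2 was most like Klk1b21 (0.916), Nat6 (0.903) and Xiap (0.879), and Thbs4 most like Hook1 (0.924), Cyp20a1 (0.909) and Polr2d (0.898). Postn was most like Fam183b (0.900), Ifih1 (0.897) and Cse1l (0.890), and Sparc most like 2210016L21Rik (0.941), Rpp21 (0.937) and Nfe2l1 (0.936). The brightest Thbs3 probe was most like Top1 (0.994), Vcp (0.993) and Bag1 (0.993), with r of 0.932, 0.917 and 0.933 over the 11 arrays other than D+P replicate 3. The values are the highest of all tested genes and carry no test.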

How the data were processed

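RNA of 12 heart samples (200 ng, RNA integrity number above 7) was labelled with Cy3 and hybridized to 1-colour Agilent arrays. The authors deposited scanner files with background-subtracted intensity values (processed signals, Feature Extraction 12.0.0.7 per the file headers) and a table of normalized intensity values, which served as an alternative. Intensities were turned into log2 values here, outlier spots were left out, arrays were quantile-normalized, and spots were averaged per probe. No deposited file holds log2 values, so every log2 value was computed from the deposited intensities. Groups came from the labels. The study's methods call the samples of a condition biological replicates, while the labels do not tie each sample to a mouse, so p-values measure the spread between samples. Limma (3.58.1, R 4.3.3) was fitted with 1 mean per group over all 12 arrays, on 30859 probes, with Benjamini-Hochberg adjustment over all of them and a threshold of 0.05. A gene was described by its brightest tested probe, other tested probes being alternatives. Named genes were the 10 members, per related list every gene that passed and the 3 with the largest averaged effect of diabetes, and the 3 genes most like each member, 1 of which is not reported here. Members, lists and markers were chosen with earlier results of these data known. The fit was tested on simulated data. The marker lists were immediate early, fibroblast, endothelial, smooth muscle and pericyte, macrophage, platelet, cardiomyocyte, atrial, tendon and cartilage, epicardium and red cell genes. Precision is limited by 3 arrays per group. The alternatives were another scaling, background correction, filter or design, the authors' normalized values, the methods' t-test with Benjamini-Hochberg or Bonferroni adjustment, other probes, and leaving out each array.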

Additional observations from a re-analysis of the deposited data

Results flagged for a closer look

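The interaction of diabetes and pargyline passed the limma threshold for 2 of the 14 tested immediate early genes, the list that moved with Thbs1 and Cyr61. Of all tested probes 0.00648% passed. The list was written with earlier results of these data known, so the calls are a description. For Egr1 the interaction was -3.62 on the log2 scale (SE 0.38, adjusted p = 0.0221), with C+P minus C at 3.82 and D+P minus D at 0.20. For Nr4a1 it was -4.07 (SE 0.42, adjusted p = 0.0221), with 3.82 and -0.25. Both calls were lost with the replicate block (adjusted p = 0.137 for Egr1 and 0.129 for Nr4a1) and without the 5 arrays of noisy repeated spots. When one array was left out, both remained without D replicate 3, Nr4a1 alone without C+P replicate 3, and neither in the other 10 fits. Pargyline and slide cannot be told apart in either effect.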

How the results depend on the processing

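The D+P against C+P log2 difference of Thbs1, the 1 matricellular gene past the threshold, was -4.17 to -1.57 over the alternatives. Leaving out one array at a time, the number of matricellular genes that passed ranged from 0 to 1 for each of D+P against C+P, diabetes averaged over pargyline and C+P against C. The call was lost without each of the 3 C arrays, each of the 3 C+P arrays, D replicate 1, D replicate 2 or D+P replicate 3. Leaving out a C or D array cannot move this difference (-3.19) and only changes the shared estimate of the spread, and it was -3.30 to -3.04 without a C+P array and -3.45 without D+P replicate 3. The call was also lost (0 genes) with the replicate block, with only the groups of the contrast, with the methods' t-test under Benjamini-Hochberg or Bonferroni adjustment, on the second Thbs1 probe and, in an alternative chosen after seeing the data, without the 5 arrays of noisy repeated spots. The replicate numbers are no pairing from the labels: same-numbered arrays correlated at -0.204 to 0.200 in their deviations, and 5 of 12 arrays correlated best with their own number. The replicate block changed no other count of matricellular or related genes, and over all probes it left 0, 8, 4, 6, 0 and 0 calls in the 6 comparisons in the order given below. Both interaction calls of immediate early genes (Egr1 and Nr4a1) were among those lost, and that of Ppbp in D+P against C+P and averaged. With normexp background correction 1 gene passed in each of the averaged effect, C+P against C and the interaction. With array weights, whose estimate did not converge, 2 matricellular and 5 related genes passed when D was set against C, and Thbs1 and 3 related genes for D+P against C+P. In that setting 3 matricellular and 9 related genes passed for the averaged effect, 2 and 10 for C+P against C, and 1 matricellular gene in the interaction. Over all probes the calls ranged over the alternatives from 0 to 2936 in D against C (main 2), 1 to 396 in D+P against C+P (14), 1 to 2256 averaged (33), 0 to 2259 for C+P against C (10), 0 to 70 in D+P against D (0) and 0 to 73 in the interaction (2), the highest always with array weights. Each group lay on 1 slide, so the slide correlation was set to 0 and slide as a random block equals the main design. Leaving out single arrays for other probes, related genes and list medians was chosen after seeing the data. The causes were not tested.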
